A study of Rattus norvegicus with 6 samples.

Results

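The co-receptor genes Cd8a, Cd8b and Cd4, the CD3 chain genes Cd3e, Cd3d and Cd3g, the adhesion receptor gene Cd2 and the kinase genes Lck and Zap70 were examined in injured rat sciatic nerve. These 9 genes, picked by symbol from the 29884 genes of the count table, were chosen with their difference between the groups already known, so that difference is described here and carries no test. The samples were whole sciatic nerve from wild type rats with chronic constriction injury (CCI), a model of neuropathic pain made by tying ligatures loosely around the nerve. In 3 of them the injured nerve had received the PLLA-PCL-RVC conduit, a device that the design text calls piezoelectric and that carries ropivacaine, a local anaesthetic; in the other 3 the injured nerve was untreated, and no uninjured nerve was analysed here. Strain, sex, age and time after injury are not given in the sources used here, nor whether each library came from its own animal, so the spread between libraries may be partly technical.

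In the T cell, the antigen receptor is carried to the surface by the CD3 chains, and a co-receptor binds the same MHC molecule as the receptor: CD8 binds MHC class I and CD4 binds MHC class II. The co-receptor brings the kinase Lck, which phosphorylates the CD3 chains, and ZAP-70 docks on the phosphorylated chains and starts the signal. CD8 is a dimer of an alpha and a beta chain on most cytotoxic T cells and of 2 alpha chains on natural killer cells and some other cells. In the rat neither co-receptor is limited to T cells: monocytes and macrophages carry CD4, and macrophages can carry CD8, which is why Cd8a, Cd8b and Cd4 are set here against the CD3 genes, whose expression is far more restricted to T cells.

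Library totals ran from 38401951 to 42225086 counts, and counts rescaled to a common library size are given as CPM. The labels give 5 batch numbers, none of which holds both groups, so batch and treatment cannot be told apart. Of the 8 Schwann cell markers, which check the tissue, all were detected, with sums of 158215 to 205893 CPM in conduit libraries and 11260 to 26591 CPM in untreated libraries. Untreated replicate 1 stood apart by its skeletal muscle markers, which summed to 10810 CPM there, against 3.56 to 8.80 CPM in the conduit group and, in untreated replicates 2 and 3, 80.2 and 8.81 CPM. Conduit replicate 3 had the highest sum of adipocyte markers, 2522 CPM; conduit replicates 1 and 2 had 512 and 650 CPM, and the untreated group had 487 to 1427 CPM.

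Both CD8 genes were far lower in conduit nerves, where Cd8b was near the detection limit, and Cd8a was abundant in untreated nerves. Cd8a, the alpha chain, was at 0.962, 0.678 and 0.445 CPM in conduit libraries, against 112.7, 60.9 and 32.9 CPM in untreated libraries, from 76 counts in the conduit group and 9649 in the untreated group. The groups did not overlap, and untreated replicate 1 was the highest and untreated replicate 3 the lowest of its group. The log2 fold change, conduit minus untreated, was -6.63 ± 0.57 (SE), the 40th lowest of the 15464 genes tested. It ran from -6.96 to -6.08 with each library left out, and was -5.81 without both untreated replicate 1 and conduit replicate 3. Cd8b, the beta chain, had 1, 0 and 1 counts in conduit libraries, against 399, 331 and 202 counts in untreated libraries. Its pooled CPM was 368 times higher in the untreated group (exact binomial 95% counting interval 102 to 3044), and the 0 in conduit replicate 2 allows up to 0.0848 CPM. Such intervals and limits cover counting error only.

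Cd4 was lower in conduit nerves by much less. Cd4 was at 34.3, 54.2 and 70.2 CPM in conduit libraries, against 113.7, 111.7 and 224.9 CPM in untreated libraries. The groups did not overlap, and untreated replicate 3 stood above the other untreated libraries. The log2 fold change was -1.50 ± 0.36 (SE), and it was -1.09 without untreated replicate 3, the library with the highest value.

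The CD3 genes, which mark T cells more narrowly, were sparse in both groups. Cd3e, the epsilon chain, was at 0.632, 0.763 and 0.498 CPM in conduit libraries, against 3.40, 2.24 and 2.51 CPM in untreated libraries (log2 fold change -2.10 ± 0.34 SE), with no overlap. Cd3d, the delta chain, was at 0.137, 0.254 and 0.236 CPM in conduit libraries, against 1.99, 0.545 and 1.33 CPM in untreated libraries (-2.61 ± 0.59 SE). These are 23 counts in the conduit group and 177 in the untreated group. The groups did not overlap for Cd3d, and untreated replicate 2 lay closest to the conduit libraries. Cd3g, the gamma chain, was at 1.79, 2.26 and 1.13 CPM in conduit libraries, against 4.57, 1.86 and 3.13 CPM in untreated libraries (-0.88 ± 0.42 SE). Here the groups overlapped, since untreated replicate 2 was below conduit replicate 2.

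The genes around the CD3 chains were lower in conduit nerves as well. Cd2, an adhesion and costimulatory receptor of T and natural killer cells, was at 0.522, 0.424 and 0.288 CPM in conduit libraries, against 3.44, 2.52 and 2.67 CPM in untreated libraries (-2.80 ± 0.36 SE). Lck was at 1.54, 1.39 and 1.39 CPM in conduit libraries, against 8.55, 7.23 and 7.13 CPM in untreated libraries (-2.41 ± 0.22 SE), the narrowest relative spread within groups of the 9 genes. Zap70 was at 0.110, 0.170 and 0.210 CPM in conduit libraries, against 1.77, 1.29 and 1.50 CPM in untreated libraries (-3.20 ± 0.42 SE), from 18 counts in the conduit group and 211 in the untreated group. None of these 3 genes overlapped between groups. Lck shares its locus with a non-coding gene, LOC120102985, which had 4, 2 and 5 counts in conduit libraries and 98, 61 and 73 counts in untreated libraries; whether strand was kept is not stated, so reads of the 2 genes may not have been told apart. Of the annotated neighbours of Lck, Fam167b was at -2.59, Eif3i at -1.10 and Hdac1 at -0.72 (edgeR adjusted p = 0.000184, 0.000391 and 0.00129).

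**Figure D1:**
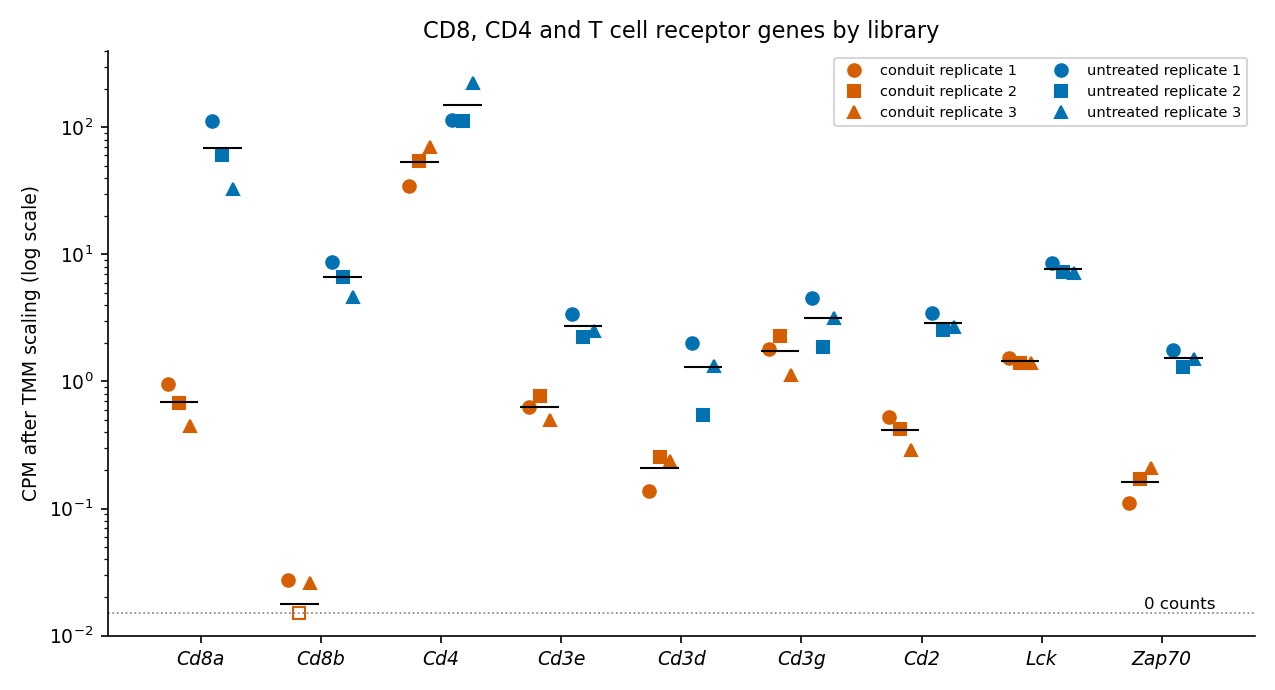
CPM after TMM scaling (log axis) of the 9 genes in each library, conduit left of untreated, with a black line at each group's mean and an open symbol for a library with 0 counts. Cd8a and Cd8b have the widest gap between groups, from 0.445 to 0.962 CPM against 32.9 to 112.7 CPM for Cd8a, and Cd3g is the gene whose groups overlap.

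All 9 genes passed the low-count filter. In edgeR's quasi-likelihood test with Benjamini-Hochberg adjustment at 0.05 over all 15464 genes tested, 8 of the 9 were called lower and none higher, where 26.2% of all genes tested were called lower (50.2% in either direction). The same 8 had every conduit library below every untreated library, as 32.2% of all genes tested did. These counts describe genes chosen on this contrast and nothing is read from them. The exception was Cd3g, whose log2 fold change was -0.53 without untreated replicate 1, -0.61 without conduit replicate 3 and -0.27 without both. It was called lower without untreated replicate 2 (-1.16), with library totals as the scale (-1.27) and by limma on log2(FPKM + 0.1), filtered or not (-1.19). In bulk nerve, fewer cells of a type and less RNA per cell cannot be told apart.

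Levels of different genes were compared per length, in FPKM (fragments per kilobase of gene, scaled to the library total). In conduit nerves Cd4 led at 14.2 ± 5.16 FPKM (SD, n = 3), Cd3g followed at 1.72 ± 0.524, and Lck, Cd3e and Cd8a lay together at 0.470 ± 0.0290, 0.438 ± 0.0799 and 0.436 ± 0.156 FPKM. Cd2 was at 0.309 ± 0.0831, Cd3d at 0.114 ± 0.0343, Zap70 at 0.0558 ± 0.0183 and Cd8b last at 0.0126 ± 0.0109 FPKM. In untreated nerves the order was different: Cd8a and Cd4 led, at 56.3 ± 32.0 and 52.2 ± 22.1 FPKM, values that did not differ beyond their spread. Cd8b followed at 6.04 ± 1.75 FPKM, then Cd3g at 4.14 ± 1.66, Lck at 3.26 ± 0.277, Cd2 at 2.83 ± 0.415 and Cd3e at 2.47 ± 0.486 FPKM. The mean ± SD ranges of neighbours in that order overlapped, although Cd8b was above Cd3g, Lck above Cd2 and Cd2 above Cd3e in every untreated library. Cd3d and Zap70 were lowest, at 0.906 ± 0.490 and 0.676 ± 0.0886 FPKM. Cd8a thus stood beside Cd3e in conduit nerves and beside Cd4 in untreated nerves.

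The ratio of each co-receptor to the CD3 genes within a library does not depend on how libraries are scaled. Cd8a FPKM divided by the mean FPKM of Cd3e, Cd3d and Cd3g was 0.787, 0.436 and 0.524 in conduit libraries, against 26.5, 30.9 and 11.1 in untreated libraries. Every conduit nerve thus held less Cd8a than the mean of the CD3 transcripts per length, and every untreated nerve held far more. In conduit libraries that mean was set mostly by Cd3g, at 1.78, 2.21 and 1.17 FPKM. Cd8a, at 0.601, 0.416 and 0.290 FPKM, was above Cd3d in each of them (0.0740, 0.135 and 0.132 FPKM). Relative to Cd3e (0.437, 0.519 and 0.359 FPKM), Cd8a was higher in conduit replicate 1 and lower in conduit replicates 2 and 3. The difference of the mean log2 ratio, conduit minus untreated, was -5.21, and -4.42 against Cd3e alone. Against Cd3e, with exact binomial 95% counting intervals, the ratio pooled over the group was 0.994 (0.708 to 1.40) in conduit nerves and 23.1 (20.8 to 25.7) in untreated nerves. The mean CD3 level itself was 0.764, 0.955 and 0.553 FPKM in conduit libraries and 3.41, 1.68 and 2.42 FPKM in untreated libraries.

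Cd4 behaved differently by the same measure. Cd4 FPKM over the mean CD3 FPKM was 11.9, 14.8 and 35.0 in conduit libraries, against 11.3, 24.0 and 32.1 in untreated libraries, so that the groups overlapped almost fully. The difference of the mean log2 ratio was -0.17, and it ran from -0.64 to 0.15 with each library left out and was 0.62 against Cd3e alone, so its sign was not settled. Lck over the mean CD3 FPKM was 0.654, 0.462 and 0.848 in conduit libraries, against 1.04, 1.90 and 1.25 in untreated libraries. Per Cd3e alone, Lck was at 1.07 (0.804 to 1.45) in the pooled conduit group and 1.32 (1.17 to 1.49) in the pooled untreated group, with overlapping counting intervals. Cd3g per Cd3e was 4.07, 4.27 and 3.26 in conduit libraries, against 1.93, 1.19 and 1.80 in untreated libraries, so the CD3 chains did not keep one ratio to each other across the groups.

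**Figure D2:**
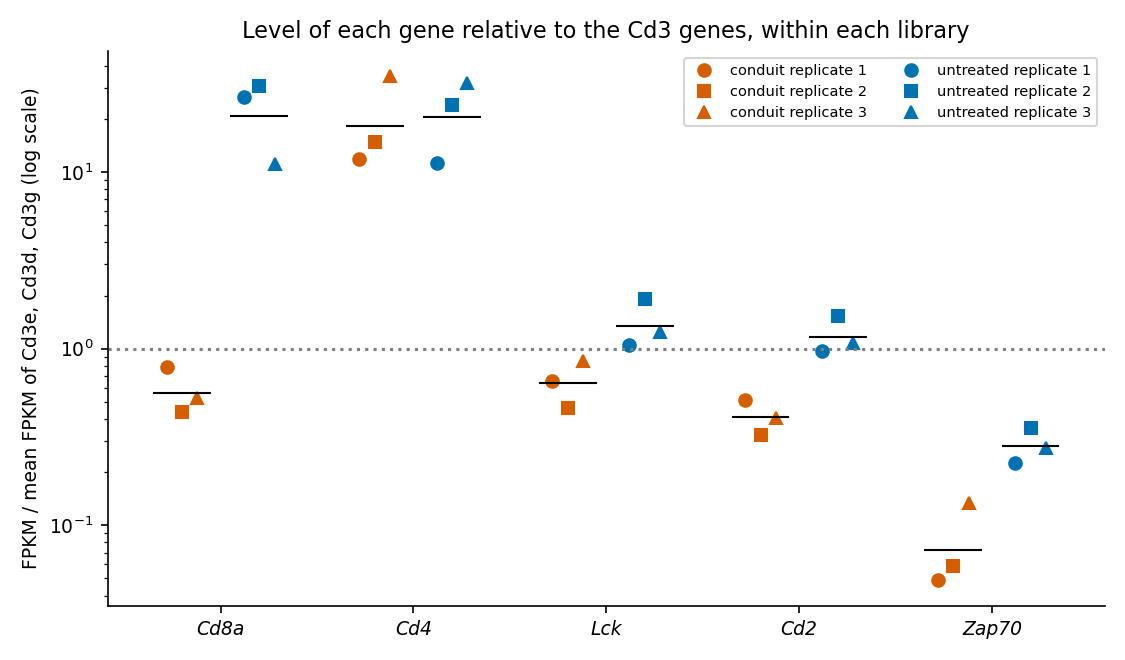
FPKM of Cd8a, Cd4, Lck, Cd2 and Zap70 divided by the mean FPKM of Cd3e, Cd3d and Cd3g in the same library (log axis), conduit left of untreated, with a black line at each geometric mean and a dotted line at 1. Cd8a lies at 0.436 to 0.787 in conduit and 11.1 to 30.9 in untreated libraries, while the Cd4 points of both groups cover the same range.

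The alpha and beta chains also differed in level from each other. In the pooled conduit group Cd8a per Cd8b, per length, was 34.4 (95% counting interval 9.21 to 289), on 76 counts of Cd8a and 2 of Cd8b. In untreated libraries it was 11.8 (10.7 to 13.1), 8.25 (7.36 to 9.27) and 6.41 (5.53 to 7.46), so the excess of alpha over beta transcript differed between these libraries by more than counting error. The 2 CD8 genes lie side by side in the GRCr8 annotation. Of their neighbours, Krcc1 was at a log2 fold change of -0.41, Rmnd5a at 0.37 and Rnf103 at 0.67 (edgeR adjusted p = 0.0185, 0.0252 and 0.00467), and LOC102549052 was at -0.46 (0.409). Of the neighbours of Cd4, Gpr162 was at 1.32, Ptms at 0.67 and LOC120102385 at 0.49 (edgeR adjusted p = 0.0135, 0.00696 and 0.332). Lag3, also beside Cd4, whose product is another MHC class II receptor, had 28, 42 and 32 counts in conduit libraries and 65, 43 and 57 counts in untreated libraries (-0.36, adjusted p = 0.447).

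Promoter sequences are shown for Cd8a, for Cd3e as the CD3 gene it is set against, and for Cd2, because these genes were all lower in conduit nerves by unequal amounts. They are RefSeq windows of the GRCr8 build, 250 bases before to 50 bases after the annotated start, and were found for 7 of the 9 genes. Capitals mark the ETS core GGAA or its reverse complement TTCC and the RUNX motif TGTGGT or its reverse complement ACCACA, on either strand; ETS and RUNX factors are known regulators of lymphoid genes.
Cd8a, chr4:104923866-104924165, plus strand: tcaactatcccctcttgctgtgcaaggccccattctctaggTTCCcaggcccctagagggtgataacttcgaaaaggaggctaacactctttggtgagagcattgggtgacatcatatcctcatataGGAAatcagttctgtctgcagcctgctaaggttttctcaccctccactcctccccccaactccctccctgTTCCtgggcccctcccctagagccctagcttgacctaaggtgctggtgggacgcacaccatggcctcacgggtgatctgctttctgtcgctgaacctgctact
Cd3e, chr8:54211721-54212020, minus strand: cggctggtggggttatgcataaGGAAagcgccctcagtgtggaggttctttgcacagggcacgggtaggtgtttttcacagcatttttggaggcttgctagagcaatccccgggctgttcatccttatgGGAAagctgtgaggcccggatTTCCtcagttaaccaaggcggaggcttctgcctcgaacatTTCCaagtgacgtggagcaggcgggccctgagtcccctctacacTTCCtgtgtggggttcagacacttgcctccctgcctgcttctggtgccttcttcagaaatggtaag
Cd2, chr2:191412610-191412909, minus strand: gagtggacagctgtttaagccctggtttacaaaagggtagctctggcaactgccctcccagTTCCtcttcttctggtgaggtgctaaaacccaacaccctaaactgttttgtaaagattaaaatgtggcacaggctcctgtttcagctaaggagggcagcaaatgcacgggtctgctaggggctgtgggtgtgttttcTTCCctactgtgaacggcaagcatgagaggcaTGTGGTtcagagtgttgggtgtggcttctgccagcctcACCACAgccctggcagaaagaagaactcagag
The ETS core occurred 3 times in the Cd8a window, 5 times in that of Cd3e and 2 times in that of Cd2, and 95.8% of all 33469 promoter windows hold it at least once. TGTGGT occurred 2 times in the Cd2 window and not in the other 2, and 17.3% of all windows hold it. The motifs do not overlap each other, and a match is a description of these letters only.

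Other genes of T cell receptor signalling did not all move in one direction. Of 40 genes listed by hand, 37 had a row in the count table (Trac, Trbc1 and Trbc2, the receptor constant regions, were not analysed here) and 34 were tested; 19 fell and 5 rose in conduit nerves, where 26.2% of all genes tested were called lower and 24.0% higher. The median log2 fold change was -1.82 over the 34 genes and -0.04 over all genes tested. Scaling by library totals moved that median to -0.43 and the calls over all genes to 6554 lower and 2291 higher, against 4049 and 3711, and 24 of the 34 pathway genes were then lower and 3 higher. Cd247, the CD3 zeta chain, fell (0.302, 0.226 and 0.314 CPM in conduit libraries, 2.51, 1.07 and 1.66 CPM in untreated libraries, log2 fold change -2.62 ± 0.45 SE, edgeR adjusted p = 0.00263). The adaptors Lat (-1.84 ± 0.30) and Lcp2 (-2.19 ± 0.22), which assemble the signalling complex below ZAP-70, fell too (edgeR adjusted p = 0.0021 and 0.000246). Lcp2 is also used by myeloid cells.

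Fyn, a kinase related to Lck that Schwann cells and neurons also express, was at 137 ± 17.7 CPM in conduit nerves and 130 ± 18.4 CPM in untreated nerves (SD, n = 3; log2 fold change 0.08 ± 0.16 SE, edgeR adjusted p = 0.717). The 5 genes that rose were Prkcq, protein kinase C theta (136 ± 20.5 CPM in conduit and 26.2 ± 6.67 CPM in untreated nerves, 2.37 ± 0.22 SE), Grap2, an adaptor (1.81 ± 0.29), the transcription factors Nfatc1 (1.06 ± 0.19) and Nfatc2 (0.80 ± 0.18), and Pag1, a membrane adaptor that recruits the inhibitory kinase Csk (0.63 ± 0.20). Their edgeR adjusted p-values were 0.000199, 0.00207, 0.0031, 0.00871 and 0.0311. Pag1 lost its call when any library but conduit replicate 3 was left out (0.0508 to 0.0941). Scaled by library totals, Pag1 and Nfatc2 were at 0.23 and 0.41 (adjusted p = 0.302 and 0.0752).

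**Figure D3:**
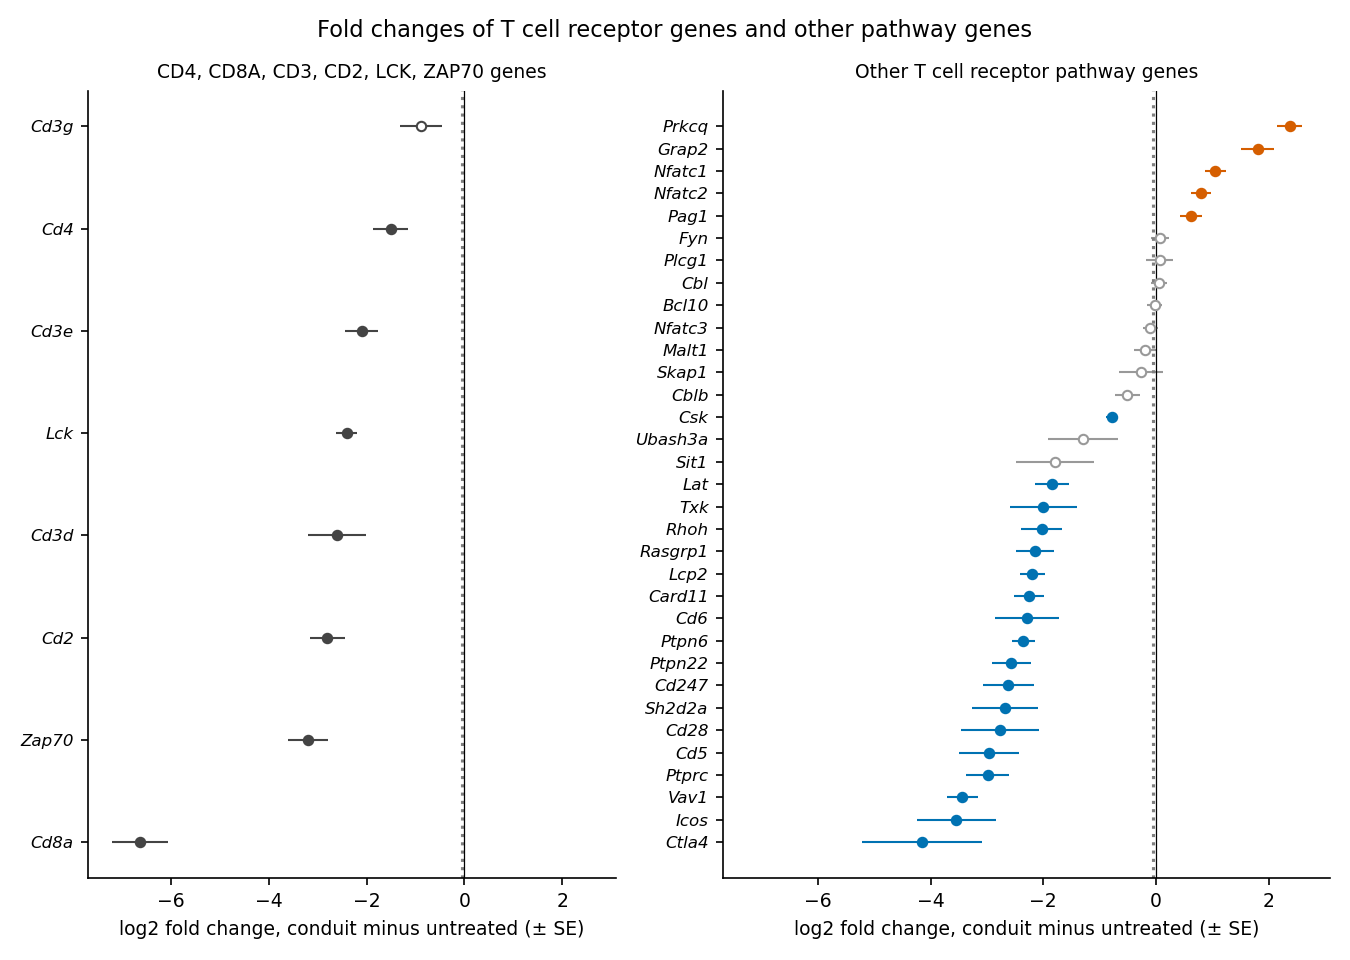
Log2 fold change, conduit minus untreated, with its SE for 8 of the 9 genes (left; Cd8b, with 2 counts in the conduit group, is not drawn) and for other pathway genes tested (right). Blue genes were called lower and orange ones higher, grey marks the genes chosen on this contrast, and open symbols were not called. The solid line is 0 and the dotted line the median of all genes tested, -0.04; Cd8a at -6.63 lies beyond the lowest pathway gene.

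Of 18 T cell identity genes 16 were tested, 7 fell and 1, Zbtb7b, rose, where 26.2% of all genes tested were called lower and 24.0% higher. Zbtb7b, which directs the CD4 lineage in the thymus but is expressed in many tissues, was at 80.9 ± 6.59 CPM in conduit and 56.1 ± 1.03 CPM in untreated nerves (0.53 ± 0.11 SE, edgeR adjusted p = 0.00632), but at 0.14 when scaled by library totals (adjusted p = 0.357). Tcf7, a T cell transcription factor, was at -0.14 ± 0.22 (SE, edgeR adjusted p = 0.637). Of 20 cytotoxic and natural killer cell genes 12 were tested, 10 fell and none rose; 6 genes passed without conduit replicate 2 or without untreated replicate 3, and 5 without both untreated replicate 1 and conduit replicate 3. Klrb1 and Klrc1, receptors of natural killer cells, were too low to test, with no count in conduit libraries and 0, 1 and 0 counts of Klrb1 and 1, 1 and 8 of Klrc1 in untreated libraries. The most abundant over all 6 libraries were Cst7, cystatin F (2.62 ± 1.62 CPM in conduit and 12.6 ± 4.93 CPM in untreated nerves, -2.25 ± 0.50 SE), Klrk1, the NKG2D receptor (-1.76 ± 0.38), and the chemokine Ccl5 (-1.74 ± 0.34), with edgeR adjusted p-values of 0.00767, 0.00719 and 0.00486. Gzmm, the most abundant in conduit nerves, was at 3.33 ± 1.63 CPM there and 1.71 ± 0.739 CPM in untreated nerves. Its fold change was positive and was not called (0.96 ± 0.50 SE, edgeR adjusted p = 0.147).

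Of 11 genes for ligands of CD8, CD4 and CD2, all of them tested, 2 fell, 2 rose and 7 did not pass. Of all genes tested, 26.2% were called lower and 24.0% higher, and with 11 genes the counts are not told apart from these shares. B2m, the light chain of MHC class I, was at 849 ± 51.0 CPM in conduit nerves and 1282 ± 154 CPM in untreated nerves (-0.59 ± 0.15 SE, edgeR adjusted p = 0.0131; 0.0729 without conduit replicate 2 and 0.0605 without conduit replicate 3). RT1-A2, an MHC class I gene whose reads may be split with its near copies, was at -0.98 ± 0.28 (edgeR adjusted p = 0.0228) and lost its call when conduit replicate 2 or 3, or untreated replicate 1 or 3, was left out (0.0577 to 0.0899). Cd74, the invariant chain that accompanies MHC class II, was at 438 ± 145 CPM in conduit nerves and 654 ± 342 CPM in untreated nerves (-0.58 ± 0.40 SE, edgeR adjusted p = 0.26). The class II chain genes, named after their values were seen, had lower fold changes that did not pass either, with RT1-Ba at -1.78, RT1-Bb at -1.69, RT1-Db1 at -1.25 and RT1-Da at -0.78, and Ciita, the class II transactivator, was at -1.16 (edgeR adjusted p = 0.0763, 0.0584, 0.0905, 0.217 and 0.108). Cd48, the CD2 ligand of rodents, rose (0.93 ± 0.21 SE, edgeR adjusted p = 0.00881; 0.0737 with scaling by library totals), as did Il16, whose product binds CD4 (1.94 ± 0.29 SE, adjusted p = 0.00151).

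Markers of several other immune cell types, though not of mast cells, were lower with Cd8a and Cd4. For the counts that follow, 26.2% of all genes tested were called lower and 24.0% higher. All 20 macrophage and monocyte markers fell (19 to 20 with each library left out). Their sum was 599, 814 and 1051 CPM in conduit libraries, against 4695, 4004 and 4586 CPM in untreated libraries. Lyz2, Mrc1 and Cd163, the 3 most abundant, were at -2.42 ± 0.25, -3.04 ± 0.47 and -3.60 ± 0.46 (SE; edgeR adjusted p = 0.000298, 0.00169 and 0.000702). Of 10 dendritic cell markers 7 fell and 1, Zbtb46, rose, and their sum was 53.4 to 94.6 CPM in conduit and 291 to 454 CPM in untreated libraries. Mast cell markers overlapped between groups, with sums of 75.4 to 176 CPM in conduit and 67.7 to 110 CPM in untreated libraries, and 1 of the 8 tested, Tpsb2, rose (0.98 ± 0.26 SE, edgeR adjusted p = 0.0167; 0.0984 with library totals and 0.0584 without untreated replicate 1 and conduit replicate 3). The cytotoxic and natural killer cell sum was 11.3, 9.50 and 12.9 CPM in conduit libraries and 48.3, 24.2 and 32.1 CPM in untreated libraries. Gzmm made up 5.00, 1.75 and 3.22 CPM of it in conduit libraries and 2.32, 0.889 and 1.93 CPM in untreated libraries. Cd8a alone was above that sum in untreated replicates 1 and 2, and close to it in untreated replicate 3 (32.9 against 32.1 CPM). CPM is not corrected for gene length, so this does not rank Cd8a against the list per length. B cell markers summed to 5.28 to 7.99 CPM in conduit and 32.1 to 47.8 CPM in untreated libraries, and neutrophil markers to 9.62 to 17.8 CPM in conduit and 50.3 to 103 CPM in untreated libraries. No marker of the macrophage, dendritic cell, mast cell, B cell or neutrophil lists was at 0 throughout either group, and the part of these cells in the Cd8a and Cd4 values was not tested.

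**Figure D4:**
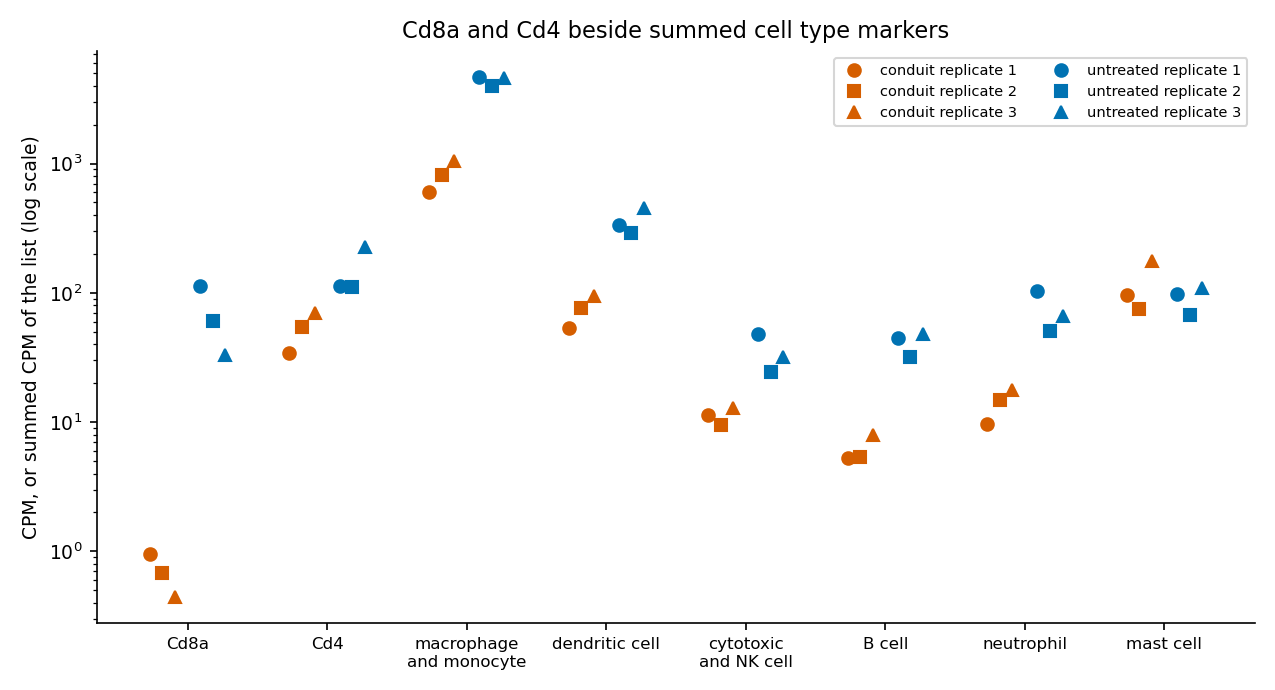
Cd8a and Cd4 (CPM, log axis) beside the summed CPM of 6 cell type marker lists in each library, conduit left of untreated. Macrophage sums lie at 599 to 1051 CPM in conduit and 4004 to 4695 CPM in untreated libraries, and the mast cell sums of the groups overlap.

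Cd4 over Cd8a FPKM was 15.1, 33.9 and 66.9 in conduit libraries and 0.428, 0.779 and 2.90 in untreated libraries. In both groups Cd8a was highest in replicate 1 and Cd4 in replicate 3, so the genes did not follow each other within a group.

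The genes with profiles nearest to Cd8a, by the root mean square difference of log2 CPM centred on each gene's mean over the 6 libraries, were Lilrb4 (0.26), Cd8b (0.46), Clcf1 (0.47), Grxcr1 (0.50) and Epcam (0.50). Lilrb4, an inhibitory receptor known mainly from myeloid cells, was at 0.605, 0.678 and 0.340 CPM in conduit libraries, against 68.1, 36.6 and 22.8 CPM in untreated libraries. Like Cd8a, it was highest in untreated replicate 1 and lowest in untreated replicate 3. Among the genes nearest to Cd3e were Sap30 (0.12), Fen1 (0.13), Amdhd2 (0.14) and Panx1 (0.15), none of which belongs to the lists of T cell genes used here. These distances rest on 6 libraries and largely on the difference between groups.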

How the data were processed

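RNA was sequenced from rat sciatic nerve, with 3 conduit and 3 untreated libraries. The authors deposited raw counts per gene and FPKM values. The submitters' processing notes name the build mRatBN7.2 and the tools HISAT2, fastp, DESeq2 and HTSeq; versions and roles are not given in the sources used here. The deposited FPKM equalled count over gene length and library total in all 20504 genes above 0 in at least 2 libraries (tolerance 0.0001). Counts were tested with edgeR 4.0.16 in R 4.3.3 (quasi-likelihood F test, two-sided, TMM scaling, filterByExpr with a minimum count of 10, group as the only term, 15464 genes, Benjamini-Hochberg adjustment, threshold 0.05); the SE is the log2 fold change over the square root of F. CPM is TMM-scaled. Counting intervals are exact binomial (Clopper-Pearson, 95%), and a count of 0 allows up to 3 counts. Scripts were tested on simulated counts. The 9 genes and all lists were chosen with earlier results of these data known. The genes named are these 9, pathway genes fixed by name, the 3 most abundant of each other list, the 5 nearest to Cd8a and to Cd3e, genes behind counts of 5 or fewer, and annotated neighbours of Cd8a, Cd4 and Lck; a few that the rule selects are not reported here. Mcpt1 of the mast cell list was not analysed here. Other settings tried were no filter, DESeq2 1.42.0, library totals, RLE scaling, a filter of 5 CPM in 3 libraries, a replicate block, limma 3.58.1 on log2(FPKM + 1) and log2(FPKM + 0.1), and libraries left out.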

Additional observations from a re-analysis of the deposited data

How the results depend on the processing

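The direction of all 9 log2 fold changes was the same under every alternative run. The calls of Cd8a, Cd8b, Cd4, Cd3e, Cd2, Lck and Zap70 did not change wherever they were tested. Cd3d lost its call without untreated replicate 1 and conduit replicate 3 together. The 9 genes were chosen on this contrast, so their calls describe the settings and nothing is read from them. With each library left out in turn, 5840 to 7882 genes were called (7760 with all), 8 to 9 of the 9 genes, 16 to 19 pathway genes lower and 4 to 5 higher, 6 to 12 cytotoxic genes, 6 to 8 T cell identity genes and 19 to 20 macrophage markers. A filter of 5 CPM in 3 libraries tests fewer genes and left 4 of the 9 genes, 6 pathway genes, 1 cytotoxic gene and 2 T cell identity genes called lower. Pathway genes called higher were 3 with library totals, 2 with log2(FPKM + 1), and 3 with log2(FPKM + 0.1) filtered or not; the filtered fit called 6 cytotoxic genes lower, and leaving out untreated replicate 1 with conduit replicate 3 called 5. Scaling by library totals moved the median log2 fold change of all genes to -0.43, against -0.04. The Cd8a to CD3 log2 difference was -5.21, -4.42 with Cd3e alone, and -5.66 to -4.92 with single libraries left out; for Cd4 it was -0.17, 0.62 and -0.64 to 0.15. Whether the replicate numbers pair the libraries was not settled. Correlations of same-numbered deviations were 0.144, -0.0278 and 0.0636, and those of the other pairs ran from -0.147 to 0.103. With 3 libraries per group they cannot show that pairing was absent. With a replicate block 8 of the 9 genes were called lower, as without it, and 19 pathway genes, 18 of them shared. Pag1 was not called with that block (edgeR adjusted p = 0.0601). For Cd8b, Zap70 and Cd3d, with 2, 18 and 23 counts in the conduit group, depth limits the precision.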
